A study of Mus musculus with 30 samples.

Results

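The genes described here are 8 components of Nodal signalling: the ligand Nodal, its co-receptor Tdgf1 (also called Cripto), the activin type II receptor gene Acvr2b, the nuclear partner Foxh1, the secreted antagonists Lefty1, Lefty2 and Cer1, and the inhibitory Smad gene Smad7. They were chosen by symbol and make up 8 of the 22477 genes in the deposited expression table. A further 33 genes of the pathway were listed by role. The cells, analysed by polyA-selected RNA-seq, were mouse secondary iPSCs, pluripotent cells that carry the OSKM factors (Oct4, Sox2, Klf4 and cMyc) as transgenes induced by doxycycline (dox), a nuclear RFP that is always on, and GFP in place of a Nanog allele. All 15 conditions share these alleles, and each was sampled with 2 replicates, 30 samples in all.

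In 7 conditions the cells were collected at 0, 24, 36, 48, 60, 72 and 96 h of 2i/LIF withdrawal, in which they differentiate in N2B27 medium without the kinase inhibitors (2i) and LIF that hold them in naive pluripotency. In the other 8 conditions, cells differentiated for 0, 24, 48 or 96 h were re-seeded in serum/LIF for 48 h, either with OSKM left off (–dox) or with OSKM switched on by dox at 2 µg/ml (+dox). The cells were maintained on feeders of mouse embryonic fibroblasts (MEFs). For the authors' colony-forming assay they were seeded on gelatin in 2i/LIF before withdrawal, and later re-seeded on MEFs. The sources used here do not say on what the cells of the RNA-seq samples grew. The deposited table gives 1 FPKM value (fragments per kilobase of transcript, scaled to the mapped fragments of the library, a level per length) for each gene and condition, with both replicates combined. No value therefore carries a spread between replicates, and no difference could be tested. A gene is called higher or lower where its values differed at least 2-fold and the higher was at least 1 FPKM, which is a description of size.

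Nodal is a ligand of the TGF-β superfamily that binds activin receptors together with a co-receptor of the Cripto family, and the signal is carried to the nucleus by Smad2, Smad3 and Smad4, which act on many genes with the DNA-binding partner Foxh1. The pathway switches on its own inhibitors: Lefty proteins block the ligand and its co-receptor outside the cell, and Smad7 acts on the receptors inside it. In the early mouse embryo, Nodal maintains the epiblast before gastrulation, patterns the front-to-back axis with Lefty1 and Cer1 from the visceral endoderm, and later directs mesendoderm and the left side of the body.

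The antagonists Lefty1 and Lefty2 are neighbouring paralogs, and their sequences are shown because they set how far reads can be told apart. In Gencode M21 on mm10, Lefty2 (chr1:180893108-180899103, plus strand) and Lefty1 (chr1:180935022-180938400, plus strand) are separated by 35918 bases. Their coding sequences, read from the mm10 genome, are 1107 bases each, of which 1017 aligned bases are identical, or 91.9%. The 60 coding bases that differ most, bases 34 to 93 counted from the start codon, have 18 differences, printed in capitals in these lines.
Lefty1: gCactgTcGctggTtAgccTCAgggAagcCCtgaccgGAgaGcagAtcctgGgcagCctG
Lefty2: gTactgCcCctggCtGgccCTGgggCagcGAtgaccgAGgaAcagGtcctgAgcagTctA
The coding sequences also share 6 identical runs of at least 50 bases. A read from such a run matches both genes equally, and how the authors divided such reads is not given in the sources used here. The split between Lefty1 and Lefty2 is therefore uncertain, and the sum of both is also given.

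Promoters were available in the RefSeq table for Nodal, Tdgf1, Acvr2b and Cer1, as 300 bases around each annotated start. Those of Nodal and Tdgf1 (GRCm38.p6, the patched release of mm10) are shown because the ligand and its co-receptor followed different courses. The first line is chr10:61417722-61418021, plus strand, and the second is chr9:110946109-110946408, minus strand, both written 5′ to 3′ of the gene.
Nodal: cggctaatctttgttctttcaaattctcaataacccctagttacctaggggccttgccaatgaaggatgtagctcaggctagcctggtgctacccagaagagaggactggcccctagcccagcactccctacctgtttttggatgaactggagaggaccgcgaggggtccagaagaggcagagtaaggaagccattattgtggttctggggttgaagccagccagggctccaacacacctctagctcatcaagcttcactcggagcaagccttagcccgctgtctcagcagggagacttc
Tdgf1: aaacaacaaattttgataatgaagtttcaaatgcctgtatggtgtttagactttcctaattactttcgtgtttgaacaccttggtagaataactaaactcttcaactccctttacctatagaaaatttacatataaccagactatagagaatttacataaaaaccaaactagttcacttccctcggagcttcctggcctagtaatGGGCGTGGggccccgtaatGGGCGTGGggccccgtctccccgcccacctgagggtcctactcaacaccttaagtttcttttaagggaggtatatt
Capitals in the Tdgf1 promoter mark 2 matches to GGGNGTGG, a motif of Kruppel-like factors, whose first bases lie 45 and 26 bases upstream of the start. This motif was searched after the sequence had been read, and 19.7% of the 27025 genes with a promoter in the table hold it on either strand. The octamer ATTTGCAT (1.97% of genes), the Foxh1 motifs AATCCACA (1.01%) and AATACACA (1.15%), the palindromic Smad motif GTCTAGAC (0.248%), the Sox motif ACAATG (14.3%) and the TCF motif ATCAAAG (4.29%) had no match on either strand of any of the 4 promoters. These matches describe letters in a window and not bound sites.

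The state of the cells was read from marker lists. The summed level of 10 naive pluripotency genes was 1274 FPKM at 0 h and 39.1 FPKM after 96 h, and that of 8 formative genes was 86.5 FPKM at 0 h, 1213 FPKM after 36 h and 218.2 FPKM after 96 h. In cells re-seeded after 0, 24, 48 and 96 h, the naive sum was 918.1, 302.6, 99.9 and 45.8 FPKM in –dox. With dox it was 762.4, 380.4, 277.6 and 59.0 FPKM. The part of these differences in the comparisons below was not tested. The 0 h cells also held the highest level of 12 fibroblast markers, 808.9 FPKM in sum, all 12 at 1 FPKM or more and Col1a1 at 228.7 FPKM, against 76.6 FPKM after 24 h and 24.2 to 43.8 FPKM at the later timepoints. In the re-seeded cells this sum was 9.81 to 25.3 FPKM, except for 147.4 FPKM in the 96 h –dox cells. The sum ran from 7.66 to 44.7 FPKM for 11 primitive endoderm genes, with Afp and Ttr under 1 FPKM throughout, from 10.0 to 56.4 FPKM for 8 neurectoderm genes, and from 0.431 to 15.3 FPKM for 8 primitive streak genes. Expression sums per condition were 603278 to 832607 FPKM. The smallest steps between values give a rough relative depth, at which a 2 kb gene of 1 FPKM stood at 85.5 to 99.4 steps in re-seeded cultures that had differentiated for 0 or 24 h, and at 28.6 to 46.9 steps elsewhere. In bulk RNA, fewer cells of a type and less RNA per cell cannot be told apart.

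During withdrawal the ligand had 2 phases. Nodal (chr10:61417972-61425338) was at 30.5 FPKM at 0 h, 19.1 after 24 h, 8.71 after 36 h, 7.16 after 48 h, 15.5 after 60 h, 30.9 after 72 h and 13.9 FPKM after 96 h. It was thus lowest at 48 h and returned at 72 h to the level of the starting cells. Its ratio was −1.13 on the log2 scale from 24 to 36 h, 1.11 from 48 to 60 h, 1.00 from 60 to 72 h, which only just reached 2-fold, and −1.15 from 72 to 96 h. Nanog, a naive pluripotency factor in the marker lists, was at 227.1 FPKM at 0 h, 6.45 after 48 h, 38.9 after 72 h and 14.5 FPKM after 96 h. The naive list as a whole did not share this rise. Its sum, Nanog included, was 90.0 FPKM after 48 h and 86.9 FPKM after 72 h.

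**Figure D1:**
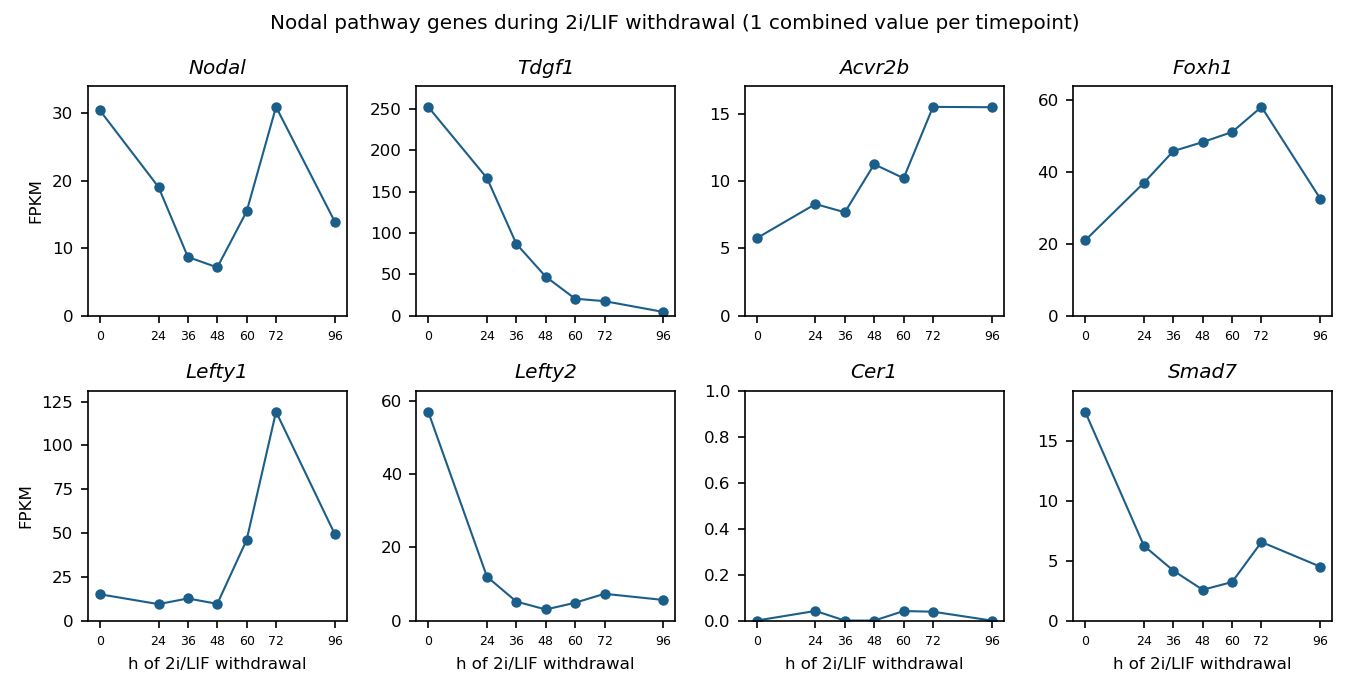
Level in FPKM (vertical axes, each from 0) of the 8 genes against hours of 2i/LIF withdrawal, with 1 point for the combined value of each of the 7 timepoints. Nodal has a low at 48 h and a second high at 72 h, Tdgf1 is lower at each later timepoint, Lefty1 peaks at 72 h, Lefty2 and Smad7 are highest at 0 h, and Cer1 stays near 0.

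The co-receptor did not share the second rise. Tdgf1 (chr9:110939603-110946158) was at 252.6 FPKM at 0 h, 166.5 after 24 h, 86.9 after 36 h, 47.3 after 48 h, 20.6 after 60 h, 17.6 after 72 h and 4.62 FPKM after 96 h. It was lower at each later timepoint and fell 54.7-fold from the first to the last. The Tdgf1 level was 8.29 times that of Nodal at 0 h and 9.97 times at 36 h, but 0.570 times at 72 h and 0.332 times at 96 h. At 72 h, when Nodal stood at its starting level, the transcript of its co-receptor was therefore below that of the ligand.

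The receptor and the nuclear partner took another course. Acvr2b (chr9:119402118-119434995), a receptor that Nodal shares with activins, was at 5.76 FPKM at 0 h, between 7.69 and 11.3 FPKM from 24 to 60 h, and at 15.5 FPKM at both 72 and 96 h. Its rise from 0 to 96 h was 2.69-fold, with no step between neighbouring timepoints reaching 2-fold. An antisense gene, Gm47320, overlaps Acvr2b, and the strand setting of the counting is not given in the sources used here, so reads of the pair cannot be told apart. Foxh1 (chr15:76668225-76669948) was at 21 FPKM at 0 h, 37.1 after 24 h, 45.9 after 36 h, 48.4 after 48 h, 51.2 after 60 h, 58.2 after 72 h and 32.6 FPKM after 96 h. It was highest at 72 h, as were Nodal and Lefty1, and at no pair of neighbouring timepoints did it differ 2-fold.

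The antagonists exchanged places. Lefty1 was at 15.0 FPKM at 0 h, 9.40 after 24 h, 12.6 after 36 h, 9.56 after 48 h, 46.1 after 60 h, 119.3 after 72 h and 49.4 FPKM after 96 h. Its values stayed within 2-fold of each other up to 48 h, and then it rose 4.82-fold to 60 h and 2.59-fold to 72 h, before it fell 2.42-fold to 96 h. Lefty2 was at 57.0 FPKM at 0 h, 12.0 after 24 h, 5.19 after 36 h, 3.03 after 48 h, 4.87 after 60 h, 7.32 after 72 h and 5.63 FPKM after 96 h. It fell 4.76-fold in the first 24 h and 2.31-fold in the next 12 h, and from 48 to 72 h its 2 steps of 1.61-fold and 1.5-fold stayed under the threshold.

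The share of Lefty1 in the sum of both Lefty levels was accordingly 20.9% at 0 h, 44.0% after 24 h, 70.9% after 36 h, 75.9% after 48 h, 90.4% after 60 h, 94.2% after 72 h and 89.8% after 96 h. Lefty2 was the more abundant Lefty at 0 and 24 h and Lefty1 at all 5 later timepoints. The sum itself was 72.1 FPKM at 0 h, 12.6 FPKM after 48 h and 126.6 FPKM after 72 h. Relative to Nodal, the sum ran between 1.12 times at 24 h and 4.09 times at 72 h.

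**Figure D2:**
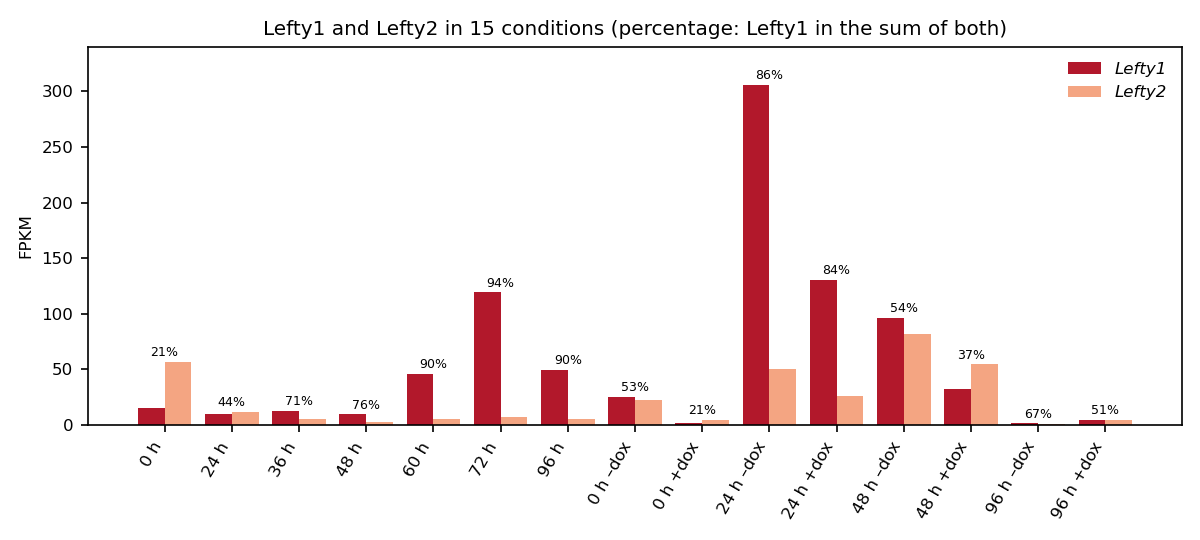
Levels of Lefty1 and Lefty2 in FPKM (bars, axis from 0) in the 15 conditions, with the share of Lefty1 in the sum of both above each pair of bars. Lefty1 makes up 20.9% of the sum at 0 h and 94.2% at 72 h, and its highest level, 306.1 FPKM, is in cells re-seeded from 24 h without dox.

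Cer1 (chr4:82881751-82885148), an antagonist of Nodal, BMP and Wnt ligands made by the anterior visceral endoderm, was listed at 0 in 12 of the 15 conditions and at 0.0387 to 0.0420 FPKM at 24, 60 and 72 h. The values above 0 stood at 1.07 to 1.37 times the smallest step by which values of a gene of its length differ, a rough guide to depth, so Cer1 was not detectable at this depth and entered no comparison. Smad7 (chr18:75367529-75395935) was at 17.4 FPKM at 0 h, 6.23 after 24 h, 4.16 after 36 h, 2.56 after 48 h, 3.21 after 60 h, 6.54 after 72 h and 4.49 FPKM after 96 h. It fell 2.79-fold in the first 24 h, was lowest at 48 h like Nodal and Lefty2, and rose 2.04-fold from 60 to 72 h.

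Counted over the comparisons, with Cer1 not tested in any, the 7 remaining genes were called as follows. From 0 to 24 h none was higher and 2 were lower (Lefty2 and Smad7), against 8.64% higher and 14.3% lower of all genes tested, and the median log2 ratio of the 7 was −0.68 against −0.01 for all genes. From 24 to 36 h none was higher and 2 were lower (Nodal and Lefty2), against 5.44% and 6.28%. Between 36 and 48 h none was called, against 2.78% higher and 2.01% lower. From 48 to 60 h Nodal and Lefty1 were higher and Tdgf1 lower, against 4.97% and 4.27%.

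From 60 to 72 h Nodal, Lefty1 and Smad7 were higher and none lower, against 2.97% and 2.27% of all genes, and the median log2 ratio of the 7 was 0.60 against 0.02. From 72 to 96 h Nodal, Lefty1 and Tdgf1 were lower and none higher, against 5.01% lower and 5.1% higher, with a median log2 ratio of −0.83 against 0.02. Between the ends of the course, 96 against 0 h, Lefty1 and Acvr2b were higher, and Nodal, Lefty2, Tdgf1 and Smad7 lower, where 16.8% of all genes were higher and 16.4% lower. All 7 differed 2-fold between some pair of timepoints, as did 60.7% of all genes that reached 1 FPKM, so that having changed at all is common in this course. The comparisons with 0 h are those of the course in which the fibroblast sum differed most. It also differed from 24 to 36 h, when Nodal and Lefty2 fell, at 76.6 and 35.3 FPKM. At 48, 60 and 72 h, over which Nodal and Lefty1 rose, it was 43.8, 24.2 and 24.9 FPKM. The part of these cells was not tested. The summed primitive endoderm markers were higher at each step of that rise, at 8.78 FPKM after 48 h, 12.7 after 60 h and 26.5 FPKM after 72 h. They were at 37.8 FPKM after 96 h, when Lefty1 was lower. The highest of these markers was Dab2, at 3.66 FPKM after 48 h, 8.22 after 60 h and 17.6 FPKM after 72 h. The median of the list did not rise at the first of these steps, at 0.218 FPKM after 48 h and 0.149 after 60 h. It was 0.720 FPKM after 72 h, and Afp and Ttr stayed under 1 FPKM. The part of such cells was not tested.

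Among the 33 other genes of the pathway, 28 reached 1 FPKM at some timepoint and 18 of these differed 2-fold between some pair of timepoints, which is near the 60.7% of all genes. Those that did not were Smad2 and Smad4, which carry the signal, and 8 intracellular negative regulators, Ski, Smurf1, Smurf2, Tgif1, Tgif2, Drap1, Trim33 and Ppm1a. Smad4 lay between 24.0 and 32.3 FPKM and Smad2 between 14.8 and 24.7 FPKM. Smad3, the other receptor-activated Smad, was at 6.68 FPKM at 0 h, 4.76 after 24 h and 19.0 FPKM after 96 h. Those that did included the 5 other ligands listed, Furin and Pcsk6, the receptors Acvr1b and Acvr2a, Smad3, the secreted antagonists Dand5, Fst and Fstl3, the intracellular regulators Skil and Pmepa1, and the targets Gsc and Eomes.

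The other ligands divided by time. Gdf3, a Nodal-related ligand of pluripotent cells, was at 54.1 FPKM at 0 h and 60.0 after 24 h and fell to 5.88 FPKM after 96 h. Gdf1, which pairs with Nodal in the embryo, was at 1.09 FPKM at 0 h, 9.92 after 60 h and 4.17 FPKM after 96 h. Inhba and Inhbb, the activin subunit genes, were at 7.94 and 3.78 FPKM at 0 h and under 1 FPKM at all later timepoints. Of the proteases that mature Nodal, Pcsk6 was at 30.1 FPKM at 0 h and 3.23 FPKM after 96 h, while Furin was at 9.91 FPKM at 0 h, 2.80 after 24 h and 18.4 FPKM after 96 h.

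Of the targets known from the embryo, the mesendoderm genes Gsc and Eomes were highest at 0 h, at 8.97 and 3.01 FPKM, and Gsc was under 1 FPKM at every later timepoint. Pmepa1, a feedback inhibitor of the pathway, was at 10.0 FPKM at 0 h, 1.85 after 48 h, 5.96 after 72 h and 3.21 FPKM after 96 h. From 0 to 24 h, 11 of 27 tested pathway genes were lower and 2 higher, against 14.3% and 8.64% of all genes, among them the fall of Inhba, Fst and Gsc, with the fibroblast sum falling from 808.9 to 76.6 FPKM in the same comparison and its part not tested.

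**Figure D3:**
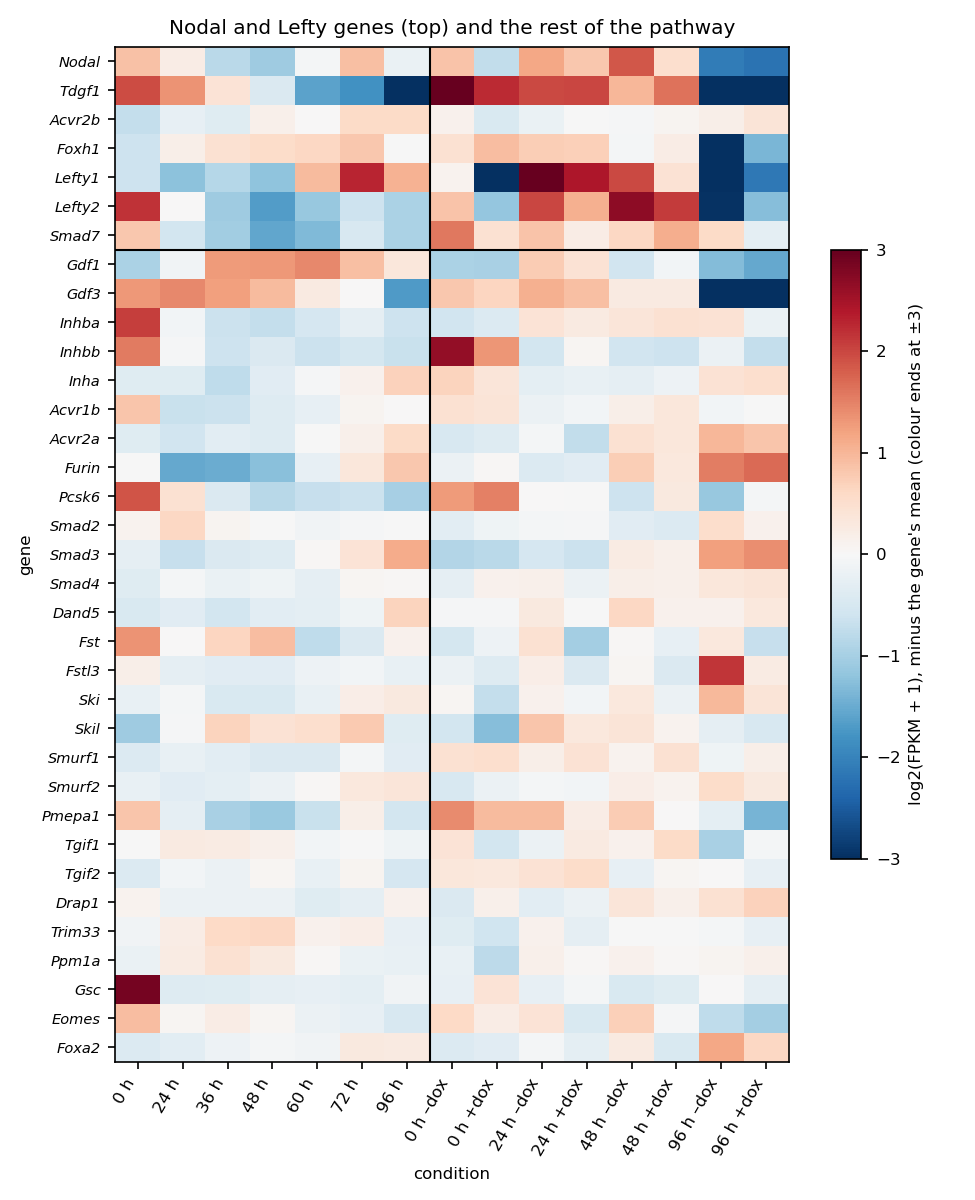
Level of the 7 genes that reached 1 FPKM (above the line) and of other pathway genes that reached it in some condition (below), as log2(FPKM + 1) minus the gene's mean over the 15 conditions, with colours ending at plus and minus 3. The timepoints stand left of the vertical line, where Lefty1 is red at 72 and 96 h and Gsc only at 0 h, and the re-seeded conditions right of it, where Nodal, Tdgf1, Lefty1 and Lefty2 are blue in cells re-seeded from 96 h.

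Re-seeding in serum/LIF without dox was compared with the cells from which each culture came. In cells that had not differentiated, Nodal was at 30.2 FPKM after re-seeding and 30.5 FPKM before. Tdgf1 rose from 252.6 to 611.9 FPKM and Foxh1 from 21 to 45.4 FPKM, while Lefty2 fell from 57.0 to 22.1 FPKM and the Lefty sum from 72.1 to 47.3 FPKM. These 2 genes higher and 1 lower stand against 12% and 10.1% of all genes, and the fibroblast sum differed from 808.9 to 9.81 FPKM in the same pair, its part not tested.

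In cells differentiated for 24 h, the antagonists rose on return. Lefty1 rose from 9.40 to 306.1 FPKM, or 32.6-fold, which was its highest level in any of the 15 conditions. Lefty2 rose 4.21-fold from 12.0 to 50.3 FPKM, and Smad7 rose 2.89-fold from 6.23 to 18.0 FPKM. The sum of both Lefty levels rose from 21.4 to 356.4 FPKM. Nodal was at 37.6 against 19.1 FPKM, a ratio of 1.97 that did not reach the threshold, and Tdgf1 at 258.0 against 166.5 FPKM. With 3 of 7 genes higher and none lower, against 14.9% and 10.6% of all genes, the median log2 ratio was 0.98, and the Lefty sum stood at 9.49 times the Nodal level, the highest such ratio in the 15 conditions. In this pair the fibroblast sum was 14.3 after return against 76.6 FPKM before, and the primitive streak sum 4.47 against 1.70 FPKM. The primitive endoderm sum was 19.4 against 12.7 FPKM, with Dab2 at 10.2 against 2.05 FPKM. Hhex was lower, at 2.36 against 7.92 FPKM, as were Gata6 and Afp, and the median of that list was 0.897 against 0.377 FPKM. Their part was not tested.

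In cells differentiated for 48 h, ligand, co-receptor and inhibitors all rose. Nodal rose 8.59-fold from 7.16 to 61.5 FPKM, its highest level in any condition. Lefty2 rose 27.1-fold from 3.03 to 82.1 FPKM, also its highest, and Lefty1 10.1-fold from 9.56 to 96.2 FPKM. The sum of both rose from 12.6 to 178.3 FPKM. Smad7 rose 5.96-fold from 2.56 to 15.3 FPKM and Tdgf1 2.75-fold from 47.3 to 130.1 FPKM. Foxh1 (31.8 against 48.4 FPKM) and Acvr2b (9.77 against 11.3 FPKM) differed by less than 2-fold. The 5 genes higher and none lower stand against 15.3% and 11.5% of all genes, with a median log2 ratio of 2.58 against −0.01. In the same pair the summed primitive streak markers were at 12.1 against 2.19 FPKM. Of these 8 genes, 3 reached 1 FPKM after return, T (5.90 FPKM), Wnt3 (3.28 FPKM) and Eomes (2.46 FPKM), and the others stayed under it. The primitive endoderm sum was 29.6 against 8.78 FPKM, with Dab2 at 21.8 against 3.66 FPKM and Ttr listed at 0. The part of such cells was not tested.

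In cells differentiated for 96 h, the same treatment was followed by lower levels. Lefty1 fell 37.3-fold from 49.4 to 1.32 FPKM, Foxh1 18.6-fold from 32.6 to 1.76 FPKM, Lefty2 8.77-fold from 5.63 to 0.642 FPKM and Nodal 4.64-fold from 13.9 to 3.0 FPKM. The Lefty sum fell from 55.0 to 1.97 FPKM. Tdgf1 was at 3.72 against 4.62 FPKM and Acvr2b at 11.5 against 15.5 FPKM, and Smad7 rose 3.26-fold from 4.49 to 14.7 FPKM. The 4 genes lower and 1 higher stand against 11.2% and 12.4% of all genes, with a median log2 ratio of −2.21 against 0.01. Pou5f1, the gene of Oct4, was at 2.63 after return against 25.5 FPKM before, and Nanog at 2.13 against 14.5 FPKM. The naive sum was 45.8 against 39.1 FPKM, and the part of these differences was not tested. In this pair the fibroblast sum was 147.4 against 33.1 FPKM, with 8 of 12 markers at 1 FPKM or more, Col1a2 at 86.0 FPKM, Lum at 0.0605 FPKM and Dcn at 0.791 FPKM, and its part in these values was not tested. Even the lowest of these values, Lefty2 at 0.642 FPKM, stood at 27.7 times the smallest step for a gene of its length.

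**Figure D4:**
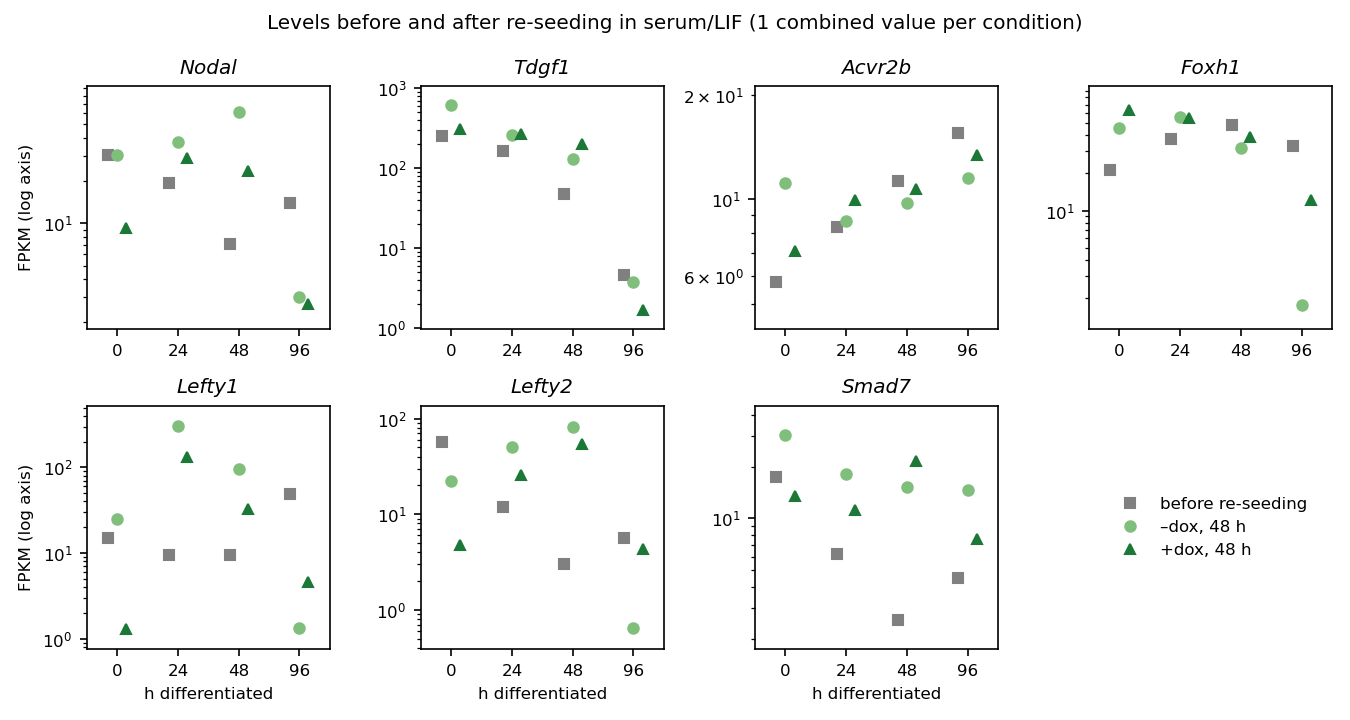
Level in FPKM on a log axis of the 7 genes that reached 1 FPKM, before re-seeding (squares) and after 48 h in serum/LIF without dox (circles) or with dox (triangles), by hours of differentiation before re-seeding. Nodal, Lefty1 and Lefty2 lie above their starting level in both re-seeded cultures from 24 and 48 h and below it in those from 96 h.

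Of the 24 to 28 other pathway genes tested at each time, 3 of 28 were higher and 3 lower on return of undifferentiated cells, where 12% of all genes were higher and 10.1% lower. After 24 h, 6 of 25 were higher and none lower, against 14.9% and 10.6%, and after 48 h, 7 of 24 were higher and 2 lower, against 15.3% and 11.5%. After 96 h, 3 of 26 were higher and 3 lower, against 12.4% and 11.2%, so the counts of the first and last time lie near the share of all genes. Pmepa1 was higher after 24 h (10.9 against 4.10 FPKM) and 48 h (9.49 against 1.85 FPKM). After 96 h the genes higher were Inhba, Fstl3, a binding protein of activins, at 6.78 against 0.518 FPKM, and the endoderm gene Foxa2, at 2.19 against 0.717 FPKM.

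The cells re-seeded at 24 or 48 h had spent the same total time since withdrawal as those left in N2B27 until 72 or 96 h, a comparison chosen after the values were seen. After 24 h and return, against 72 h of withdrawal, Nodal was at 37.6 and 30.9 FPKM and Foxh1 at 55.8 and 58.2 FPKM, whereas Tdgf1 was at 258.0 and 17.6 FPKM and Lefty2 at 50.3 and 7.32 FPKM. The ligand thus differed 1.21-fold while the co-receptor differed 14.6-fold and Lefty2 6.88-fold. Lefty1, at 306.1 and 119.3 FPKM, differed 2.57-fold, less than its 32.6-fold difference from the 24 h cells. After 48 h and return, against 96 h of withdrawal, Nodal differed 4.41-fold, Lefty2 14.6-fold and Tdgf1 28.2-fold, all higher after return. Lefty1, at 96.2 and 49.4 FPKM, differed 1.95-fold and did not reach the threshold.

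Induction of OSKM during the return was compared at each time with the –dox culture re-seeded from the same cells. These comparisons share their –dox conditions with those above, so the values of each are given on their own. In undifferentiated cells, Nodal was at 9.21 FPKM in +dox and 30.2 FPKM in –dox, Lefty1 at 1.29 and 25.2 FPKM, Lefty2 at 4.76 and 22.1 FPKM, and Smad7 at 13.5 and 30.6 FPKM. The ligand and 3 inhibitors were therefore lower with dox, by 3.28-fold, 19.5-fold, 4.65-fold and 2.26-fold. The Lefty sum was 6.05 against 47.3 FPKM. Tdgf1, at 310.7 against 611.9 FPKM, fell just short of the threshold with a ratio of 1.97, and Foxh1 was at 63.5 against 45.4 FPKM. With 4 of 7 genes lower and none higher, against 5.61% lower and 3.62% higher of all genes, the median log2 ratio was −1.17 against 0.05. In cells differentiated for 24, 48 and 96 h this median was −0.38, 0.13 and 0.23, against 0.02, −0.02 and −0.01 for all genes.

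In cells differentiated for 24 h, Lefty1 was lower in +dox, at 130.6 against 306.1 FPKM, and was the only one of the 7 genes to reach the threshold, against 3.4% lower and 2.87% higher of all genes. Lefty2 was at 25.8 against 50.3 FPKM, a ratio of 1.95, and the Lefty sum at 156.4 against 356.4 FPKM. Nodal (28.8 against 37.6 FPKM), Tdgf1 (264.4 against 258.0 FPKM) and Foxh1 (54.4 against 55.8 FPKM) differed by less than 2-fold, as did Smad7 (11.2 against 18.0 FPKM). The primitive endoderm sum was 11.0 in +dox against 19.4 FPKM, with Dab2 at 4.08 against 10.2 FPKM. The primitive streak sum was 1.67 against 4.47 FPKM, and the part of both lists was not tested.

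In cells differentiated for 48 h, Nodal was lower in +dox, at 23.2 against 61.5 FPKM, and Lefty1 at 32.4 against 96.2 FPKM, a pair of calls against 6.46% lower and 6.56% higher of all genes. Lefty2 was at 54.5 against 82.1 FPKM, Tdgf1 at 201.9 against 130.1 FPKM and Smad7 at 21.4 against 15.3 FPKM. The Lefty sum was 86.9 against 178.3 FPKM, and Lefty1 accordingly made up 37.3% of it in +dox and 53.9% in –dox. The Tdgf1 level was 8.68 times that of Nodal in +dox and 2.12 times in –dox. In this pair the primitive streak sum was 2.48 in +dox against 12.1 FPKM, with T at 0.390 against 5.90 FPKM. The primitive endoderm sum was 13.0 against 29.6 FPKM, a difference found mainly in Dab2, at 5.19 against 21.8 FPKM. Of its other members, Hhex (3.62 against 2.33 FPKM), Gata4 and Amn were higher in +dox. Gata6, Sox17 (0.435 against 1.19 FPKM), Sox7, Pdgfra, Cubn and Afp were lower, and Ttr was at 0 in both. The part of both lists was not tested. The naive sum was higher in +dox, at 277.6 against 99.9 FPKM, and its part was not tested either.

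In cells differentiated for 96 h, Foxh1 was higher in +dox, at 12.1 against 1.76 FPKM, as were Lefty1, at 4.54 against 1.32 FPKM, and Lefty2, at 4.29 against 0.642 FPKM. The Lefty sum was 8.83 against 1.97 FPKM. Tdgf1 was lower, at 1.69 against 3.72 FPKM, and Nodal did not differ 2-fold, at 2.69 against 3.0 FPKM, nor did Smad7, at 7.62 against 14.7 FPKM. The 3 genes higher and 1 lower stand against 6.67% and 11.1% of all genes. Before re-seeding, the 96 h cells were at 32.6 FPKM for Foxh1 and 49.4 FPKM for Lefty1, above both re-seeded cultures. The fibroblast sum was 147.4 FPKM in the –dox and 25.3 FPKM in the +dox cells of this pair. The primitive endoderm sum was 44.7 and 18.9 FPKM, with Dab2 at 28.5 and 12.0 FPKM, and the part of both lists was not tested.

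Acvr2b was the steadiest of the 7 genes in the re-seeded cells, between 7.08 and 13.4 FPKM over the 8 conditions. No ratio of +dox to –dox reached 2-fold for it at any of the 4 times, and neither did any ratio of –dox to the cells before re-seeding.

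In the dox comparisons, 2 of 25 tested pathway genes were lower in undifferentiated cells, 4 of 25 after 24 h, 2 of 24 after 48 h and 4 of 24 after 96 h, against 5.61%, 3.4%, 6.46% and 11.1% of all genes, and at most 1 was higher at any time. The counts in undifferentiated cells and after 48 h lie near the share of all genes. Eomes was lower at 24 h (0.526 against 1.78 FPKM) and at 48 h (1.05 against 2.46 FPKM). The single gene higher, at 48 and 96 h, was Pcsk6, at 9.29 against 4.48 FPKM and at 7.08 against 2.84 FPKM.

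Across the 15 conditions, the gene whose pattern was most like that of Nodal was Lefty2, with a Pearson correlation of log2(FPKM + 1) of 0.85, among all genes that reached 10 FPKM. This is a description over 15 points that share cultures and media, and over the 7 timepoints alone it was 0.72. Lefty1 correlated with Nodal at 0.78 over 15 conditions and 0.48 over 7 timepoints, and with Lefty2 at 0.62 and −0.17. Among the other members, Smad7 was the most parallel to Lefty2 during withdrawal, with 0.97 over the 7 timepoints, where both were highest at 0 h. Tdgf1 and Acvr2b ran opposite to each other, at −0.67 over 15 conditions and −0.91 over the timepoints.

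The genes most like Tdgf1 were Triml2 (0.97), Triml1 (0.96) and Dppa5a (0.96), of which Dppa5a is a marker of pluripotent cells. Those most like Foxh1 were Hmga1 (0.96), Ankrd27 (0.95) and Wdr31 (0.95), and those most like Smad7 were Socs3 (0.91), a feedback inhibitor of LIF signalling, Epb4.1l1 (0.88) and Pxk (0.88). After Lefty2, the genes most like Nodal were Syt9 (0.84) and Plekhf2 (0.83), and those most like Acvr2b were Kif4 (0.85), Grik5 (0.84) and Camk2g (0.83). Lefty2 was most like Gm14136 (0.89), Nefl (0.87) and Arl15 (0.85).

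The genes most like Lefty1 included Cpeb1 (0.86) and Bcdin3d (0.83). Over the 15 conditions Lefty1 ranged 237-fold, from 1.29 FPKM in undifferentiated +dox cells to 306.1 FPKM in the 24 h –dox cells.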

How the data were processed

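Polyadenylated RNA of 30 samples in 15 conditions was sequenced on an Illumina HiSeq instrument. The authors mapped reads to mm10 with TopHat2 2.0.14 and quantified Gencode vM4 genes with Cuffquant and Cuffdiff of Cufflinks 2.2.1. The deposited table holds 1 FPKM value per gene and condition with both replicates of a condition combined, and Cuffdiff's library normalization is not given in the sources used here. Its columns of the authors' own calls (response to dox and dynamic class) were not used. No replicate values or counts were analysed here, so depth is unknown beyond the smallest steps between values, and no test was run.

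Values were used as deposited, without scaling, in Python 3.11.15 with numpy 2.4.6 and pandas 2.3.3, and figures drawn with matplotlib 3.10.9. Ratios had nothing added. A call required a 2-fold ratio and 1 FPKM in the higher value, and the share of all genes called was counted over genes with 1 FPKM in the higher value. Likeness was Pearson's r of log2(FPKM + 1). The steps were tested on simulated data. Genes were named by rule: the 8 members, the 33 listed pathway genes, the marker lists and, for each member reaching 1 FPKM, the 3 most alike genes reaching 10 FPKM. Some genes that the rule names and some sequence are not reported here. Members and lists were chosen with earlier results of these data known. Positions are from Gencode M21, where 94.9% of symbols were found, and promoters from RefSeq. Alternatives covered the fold, minimum, added value, scaling, summing of both Lefty genes and the measure of likeness.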

Additional observations from a re-analysis of the deposited data

Results flagged for a closer look

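The ratio of +dox to –dox changed sign between times for both Lefty genes. For Lefty1 the log2 ratio was −4.28 in undifferentiated cells, −1.23 after 24 h and −1.57 after 48 h of differentiation, and 1.78 after 96 h. For Lefty2 it was −2.22 in undifferentiated cells and 2.74 after 96 h. The difference between times was not tested, since each condition has 1 combined value. At 96 h both Lefty genes were under 5 FPKM in the +dox cells and under 1.5 FPKM in the –dox cells, and the fibroblast markers summed to 147.4 FPKM in those –dox cells.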

How the results depend on the processing

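No paired analysis was possible because the table combines both replicates of a condition, and for the same reason no replicate could be left out. The 19 calls of the time course became 32 at 1.5-fold, 7 at 3-fold and 11 without the comparisons that use 0 h, an alternative chosen after seeing the data. The 11 dox calls became 18 at 1.5-fold and 6 at 3-fold. The other alternatives kept the counts within 1.5 times, at 16 to 23 for the time course, 8 to 14 for dox, 11 to 23 for the 16 re-seeding calls and 13 to 24 for the 18 pathway genes that changed. Of the 46 member calls, 46 held with median-ratio factors and 45 with equal sums per condition, which moved the median log2 ratio of all genes by −0.23 to 0.27. The exception was Nodal at 96 against 0 h, at −0.86. None of the 46 called ratios reversed direction, and the directions of uncalled ratios and of the other pathway genes were not checked. Of the 21 genes named as most alike, 8 were kept with Spearman's rho, 11 among genes reaching 1 FPKM and 0 over the 7 timepoints alone, so the named genes depend on the measure and on the re-seeded conditions. Without replicate values, a 2-fold difference cannot be set against the spread between samples, and the reads behind low values are not known.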
